A study of Danio rerio with 13 samples.

Results

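Control populations of zebrafish arch crest are compared. Some embryos were heat-shocked while carrying only 1 of the 2 transgenes needed for overexpression, and the others were not heat-shocked. The libraries were chosen by their labels, and make up 4 of the 13 libraries of the series. Both heat-shocked populations came from embryos kept at 40 °C from 20 to 24 hours post-fertilization (hpf). One carried *hsp70I*:Gal4 alone, in which a heat shock promoter drives the yeast activator Gal4, and the other carried *UAS*:Edn1 alone, an *edn1* transgene that needs Gal4 to be expressed. The unshocked populations were wild types and the *jag1b*+/+ siblings of *jag1b* mutants, the latter identified from tail biopsies at 24 hpf. All 4 were collected at 36 hpf and carried the transgenes *fli1a*:EGFP and *sox10*:DsRed, and cells positive for both were sorted. Embryos for this stage were moved to 22 °C at 27 hpf to slow their development overnight. The Edn1 line also carries a lens-specific Cerulean reporter. Each population is 1 library made from pooled embryos, and the 2 libraries of a group differ in genotype, so they are not strict replicates. Heat shock therefore cannot be told apart from the transgenes, the lines and the handling that go with it.

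The pharyngeal arches are embryonic tissue bars below the head, filled by cranial neural crest cells that later build the facial cartilages. Heat unfolds proteins, and cells answer through heat shock factors, which switch on chaperones of the cytosol such as the Hsp70, Hsp90 and small heat shock proteins. Unfolded proteins inside the endoplasmic reticulum are met by a separate set of chaperones and folding enzymes. Heat shock lines are widely used in zebrafish to switch genes on at a chosen stage, which makes the effect of the shock itself part of every comparison with unshocked embryos.

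Expression was read as RPKM, which scales the reads of a gene by transcript length and by library depth, and a gene was tested if it reached an RPKM of 3 in any of the 4 libraries. This held for 8606 of 27911 genes, of which 6553 reached 3 in all 4 libraries, 538 in a heat-shocked library only and 515 in an unshocked library only. A gene was counted as different only when both heat-shocked values lay on the same side of both unshocked values. The gap is the lowest value of the higher pair divided by the highest value of the lower pair. Depth relative to the wild-type library was 1.23 for the *hsp70I*:Gal4 library, 0.797 for *UAS*:Edn1 and 1.02 for the *jag1b*+/+ siblings. Of the tested genes, 1028 had values from which whole reads could be recovered, and for the median of these an RPKM of 3 stood for 173 to 267 reads. Summed RPKM of 16 arch crest markers was 950 and 1109 in the heat-shocked and 1007 and 1128 in the unshocked libraries, against 329 in cells positive for *sox10*:DsRed only and 420 in cells positive for *fli1a*:EGFP only. Of the 15 markers tested, 1 was higher (6.67%) and 4 lower (26.7%) in both heat-shocked libraries, beside 27.1% and 13.0% of all tested genes. None had a gap of 1.5-fold or more in either direction. Of all tested genes only 1.56% were higher and 1.68% lower with such a gap.

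Both heat-shocked libraries were above both unshocked libraries for 2328 genes (27.1% of those tested) and below them for 1116 genes (13.0%). A gap of at least 1.5-fold was reached by 134 higher genes (1.56%) and 145 lower genes (1.68%). Of these, 73 higher and 86 lower genes passed the RPKM filter through that group alone. With each library divided by its median ratio to the others, the higher share went from 67.6% to 50.2% of the genes without overlap and from 48% to 32.4% of the genes with the gap. Closest to the limit were *ccng1*, with a gap of 1.50518, just inside and *ddx54*, with a gap of 1.49955, just outside among higher genes, and *rspo2* with a gap of 1.5005 and *tm9sf1* with a gap of 1.49645 among lower genes.

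By limma on log2(RPKM + 1), with Benjamini-Hochberg adjustment over the 8606 genes, 2 genes rose (0.0232%) and 8 fell (0.0930%). At an unadjusted p under 0.05 there were 409 higher and 266 lower genes, and the median difference over all genes was 0.07 on the log2 scale. An exact permutation test of 2 libraries against 2 cannot give a two-sided p below 0.333. The wild-type library stood apart: the 2 unshocked libraries were 1.5-fold or more apart in 26.2% of genes and the 2 heat-shocked ones in 12.2%, and *jag1b*+/+ siblings differed by this much from *hsp70I*:Gal4 in 12.3% of genes. Without the wild-type library 399 genes were higher and 256 lower by 1.5-fold, without the siblings 890 and 849, without *hsp70I*:Gal4 556 and 377, and without *UAS*:Edn1 253 and 264. Limma counts are not given for these, because a group then holds 1 library and the spread comes from the other group alone.

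**Figure D1:**
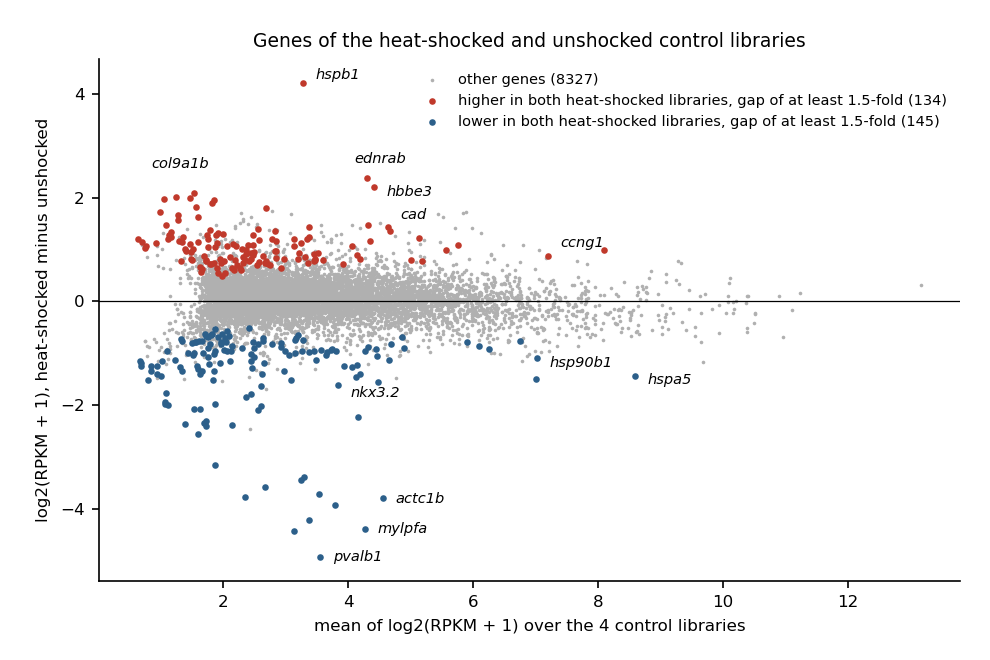
Each point is 1 of the 8606 genes tested, placed by its mean log2(RPKM + 1) over the 4 control libraries and by the heat-shocked minus the unshocked mean of log2(RPKM + 1). Red points are the 134 genes higher and blue points the 145 genes lower in both heat-shocked libraries with a gap of at least 1.5-fold, with *hspb1* highest at 4.21 and *pvalb1* lowest at -4.93.

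The small heat shock gene *hspb1*, which encodes a chaperone that holds unfolded proteins in solution, had the largest gap of all tested genes. Its RPKM was 46.2 in *hsp70I*:Gal4 and 36.1 in *UAS*:Edn1 embryos, against 1.34 in wild types and 1.18 in siblings. These values stood for 4765, 2408, 112 and 101 reads. Both heat-shocked libraries were far above both unshocked ones, with a gap of 27-fold, and *hspb1* rose by 4.21 ± 0.22 (SE) on the log2 scale (limma adjusted p = 0.000164, 2 libraries against 2). The gene passed the RPKM filter through the heat-shocked libraries alone. It was also at 28.5 and 46.4 in the 2 other heat-shocked libraries of the series, which overexpressed the Notch intracellular domain (NICD) and Edn1, and at 0.365 to 1.21 in *edn1* mutants, *jag1b* mutants and embryos treated with the Notch inhibitor DBZ, none of which were heat-shocked. In wild types *hspb1* was at 2.98 at 20 hpf and 0.995 at 28 hpf.

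The inducible Hsp70 genes did not separate the groups at 36 hpf. The gene *hsp70l* was at 14 and 12.4 in the heat-shocked libraries, 7.36 in wild types and 65.1 in siblings. The highest and the lowest of the 4 values were thus both from unshocked embryos. For *hsp70.3* the values were 119, 119, 52.5 and 246 in the same order, and for *hsp70.2* they were 66.3, 66.6, 36.9 and 170. In each case the siblings held the highest of the 4 values, and the *jag1b* mutants of the same line were at 47.4 for *hsp70l*, 221 for *hsp70.3* and 140 for *hsp70.2*. High values were not confined to that line. Unshocked *edn1* mutants, which were selected by their appearance under the microscope, were at 27.8, 123 and 177 for these genes. Embryos treated with DBZ were at 14.1, 71.6 and 51.3. Because these paralogs are nearly identical, how their reads were assigned is uncertain, and so are their single values. Tail biopsies were taken from the *jag1b* line and from the heat-shocked embryos overexpressing NICD or Edn1, which were at 13.7 and 9.52 for *hsp70l*. Whether the heat-shocked controls were biopsied is not given in the sources used here, and the part of the biopsy was not tested.

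Of 32 tested genes for cytosolic heat shock proteins and co-chaperones, 11 (34.4%, beside 27.1% of all genes) were higher and 2 lower in both heat-shocked libraries. The one member with a gap of 1.5-fold was *hspb1* (3.12%, beside 1.56% of all genes). The median difference of the list was 0.09 on the log2 scale, beside 0.07 for all genes, and after rescaling 10 members were higher and 4 lower. The constitutive Hsp70 gene *hspa8* was at 1893 and 2078 against 1817 and 1861, and the constitutive Hsp90 gene *hsp90ab1* at 702 and 717 against 546 and 573. Both were slightly higher in both heat-shocked libraries, with gaps of 1.02 and 1.23, but after rescaling the groups overlapped for *hspa8*. Examples of the 11 higher members are 2 partners of Hsp70, *bag2* at 8.12 and 6.82 against 4.56 and 2.18, and *bag3* at 5.34 and 7.3 against 2.08 and 4.27. The co-chaperone *ptges3b* (237 and 218 against 226 and 216) and the polyubiquitin gene *ubc* (142 and 127 against 192 and 122) overlapped between groups. The 7 subunits of the cytosolic chaperonin had 3 members higher, 0 lower and none with the gap.

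Genes of the endoplasmic reticulum stress response were lower in the heat-shocked libraries. Of 23 tested, 16 (69.6%, beside 13.0% of all genes) were lower in both and 1 higher. A gap of 1.5-fold was reached by 8 (34.8%, beside 1.68% of all genes), and the median difference was -0.74 on the log2 scale. The Hsp70 chaperone of this compartment, *hspa5*, was at 234 in both heat-shocked libraries, 544 in wild types and 749 in siblings. Its Hsp90 chaperone, *hsp90b1*, was at 79.9 and 97.1 against 162 and 223. The unshocked libraries were above both heat-shocked ones for each gene, with gaps of 2.32 for *hspa5* and 1.67 for *hsp90b1*, and differences of -1.44 ± 0.28 and -1.10 ± 0.27 (SE) (limma adjusted p = 0.163 and 0.338). Wild types of 20 and 28 hpf were at 375 and 287 for *hspa5* and at 34.7 and 84.2 for *hsp90b1*. The *fli1a* and *sox10* single-positive cells were at 338 and 350 for *hspa5* and at 103 and 97.9 for *hsp90b1*. The transcription factor gene *xbp1*, which drives much of this response, was at 81.6 and 80.9 against 143 and 136. The calcium-binding chaperone *calr* was at 49.9 and 60.5 against 107 and 101, and the disulfide isomerase *pdia6* at 45.3 and 43.8 against 77.3 and 78.5. Within each of these 3 genes the 2 libraries of a group were closer to each other than to the other group. The remaining members with the gap were the co-chaperone *dnajc3a* (5.11 and 5.47 against 11 and 12.2), the secreted protective factor *manf* (12.8 and 12.9 against 29.8 and 22.7) and *sdf2l1* (7.69 and 8.4 against 21.7 and 13). The exception in direction was *asns*, an amino acid synthesis gene, at 8.38 and 8.86 against 2.88 and 6.15, and the stress factors *atf4a*, *atf4b* and *ddit3* overlapped between groups. In a limma fit of all 9 double-positive libraries of 36 hpf, 6 members of the list were lower at an adjusted p under 0.05. Over all 8606 genes 86 were lower in this fit, and *hspa5* had an adjusted p of 0.00412. This fit includes the 4 controls, so it is not independent of the values above. In the added libraries gain of a pathway goes with heat shock and loss with no heat shock. After rescaling 11 members were lower with the gap, beside 194 of all 8606 genes. When the siblings were left out 13 members were, beside 849 of all genes, so the share over all genes grew too.

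**Figure D2:**
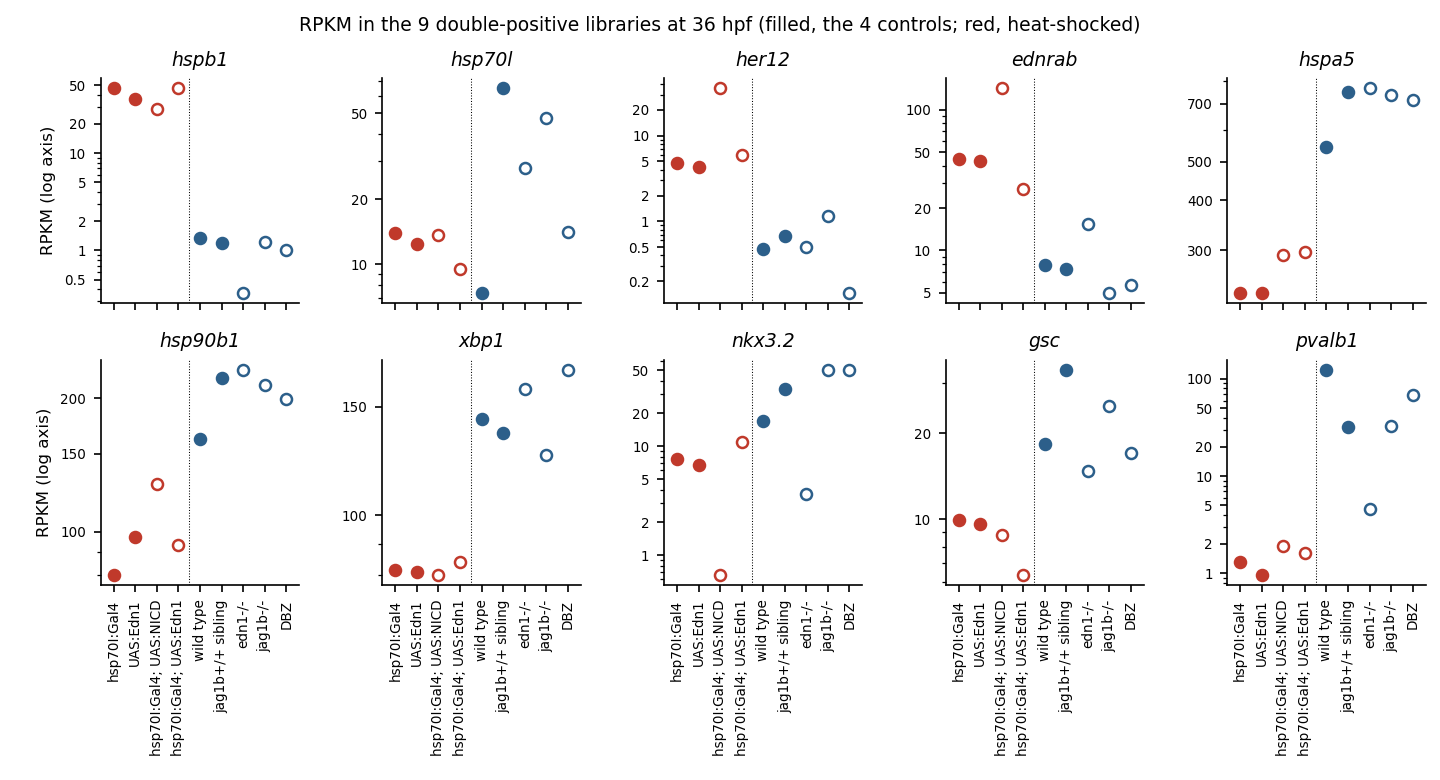
RPKM (log axis) of 10 genes in each of the 9 double-positive libraries at 36 hpf. Red circles left of the dotted line are heat-shocked and blue circles right of it unshocked, and filled circles are the 4 controls. The 4 heat-shocked libraries lie above the 5 unshocked ones for *hspb1*, *her12* and *ednrab* and below them for *hspa5*, *hsp90b1*, *xbp1*, *gsc* and *pvalb1*, while *hsp70l* and *nkx3.2* overlap.

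The second gene that rose was *ednrab*, an endothelin receptor gene through which crest cells receive the Edn1 signal. Its RPKM was 44.5 and 43.2 in the heat-shocked libraries and 7.86 and 7.34 in the unshocked ones, a gap of 5.49-fold, and it rose by 2.38 ± 0.21 (SE) on the log2 scale (limma adjusted p = 0.00816). After rescaling its adjusted p was 0.0543 by limma, above the threshold of 0.05, while that of *hspb1* was 0.00988. Among double-positive libraries of 36 hpf, every heat-shocked one was above every unshocked one, with 142 with NICD and 27.4 with Edn1 overexpression against 4.98 to 15.3. Unshocked *sox10* single-positive cells of the same stage were at 54.5, above 3 of the 4 heat-shocked libraries, and *fli1a* single-positive cells at 1.14. The part of such cells in the *ednrab* difference was not tested. In wild types it was at 396 at 20 hpf and 108 at 28 hpf. The ligand gene *edn1* was below the RPKM filter, at 0.502 and 0.225 against 0.0488 and 0.0636, which stood for 38, 11, 3 and 4 reads. With Edn1 overexpression it was at 6.31. The receptor gene *notch1a*, which the NICD transgene is made from, was at 3.44 and 3.26 against 1.81 and 2.36, and the Notch ligand gene *jag1b* at 22.9 and 27.8 against 19.3 and 18.9. Both were higher in both heat-shocked libraries, with gaps of 1.38 and 1.19. Of the genes behind the sort, *sox10* was at 16.4 and 9.9 against 3.12 and 12.2 and *fli1a* at 57 and 77.3 against 72.8 and 69.3, with overlap for each.

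Regulators that pattern the arches along the dorsoventral axis were divided, and of the 7 with a gap of 1.5-fold all but *ednrab* were lower. Of 23 tested ventral and intermediate genes, 4 (17.4%) were higher and 6 (26.1%) lower in both heat-shocked libraries, beside 27.1% and 13.0% of all genes. By the gap *ednrab* was higher (4.35%) and *nkx3.2*, *foxf2b* and *foxl1* were lower (13%), beside 1.56% and 1.68% of all genes. The jaw joint gene *nkx3.2* was at 7.71 and 6.68 against 16.9 and 33.8, *foxl1* at 5.19 and 8.93 against 14.9 and 13.5, and *foxf2b* at 3.52 and 4.11 against 7.44 and 6.84. For these 3 genes the lowest unshocked value was 1.51 to 2.2 times the highest heat-shocked one. In *edn1* mutants and with Edn1 overexpression, *foxl1* was at 25.4 and 3.38 and *foxf2b* at 11.4 and 2.14, but *nkx3.2* at 3.62 and 10.9. The name of the list thus does not give the direction in which a member differs between these libraries, which also differ in heat shock. Of 30 tested dorsal and maxillary genes, 5 (16.7%) were higher and 12 (40%) lower. By the gap *tbx22*, *pax9* and *alx4b* were lower (10%) and none was higher. Of these, *tbx22* and *alx4b* passed the RPKM filter through the unshocked libraries alone. The palate gene *tbx22* was at 0.779 and 1.05 against 3.35 and 4.81, *pax9* at 5.72 and 6.07 against 11.9 and 12.7, and *alx4b* at 1.88 and 1.96 against 5.2 and 3.34. The medians of the lists were -0.07 and -0.11 on the log2 scale, and no lower gene of either list passed the test over 4 libraries. Nor did *gsc*, a homeobox gene of the mandibular arch that was picked after its values were seen, at 9.9 and 9.58 against 18.3 and 33.4.

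Skeletal genes were divided. Among 18 tested cartilage and skeletal genes, 5 were higher and 5 lower in both heat-shocked libraries (27.8% each). Over all tested genes the shares were 27.1% higher and 13.0% lower, so the higher share was near that of all genes. The collagen gene *col9a1b* was at 4.7 and 2.95 against 0.199 and 0.164, a gap of 14.8-fold (difference 2.01 ± 0.47 (SE), limma adjusted p = 0.276), and the matrix protein gene *matn4* at 20.8 and 21 against 41.1 and 38.2. Of 30 tested extracellular matrix genes, 2 were higher (6.67%) and 10 lower (33.3%). Against wild types and siblings their log2 median was -0.62 and -0.23 for *hsp70I*:Gal4, but -0.31 and 0.11 for *UAS*:Edn1. The collagen crosslinking enzyme *loxl2b* (17.4 and 14.9 against 44.9 and 29.4) and *col27a1b* (1.16 and 1.13 against 3.24 and 2.32) had the gap. The small proteoglycan gene *aspn*, among the 15 lower genes with the largest gaps, was at 0.466 and 0.341 against 7.78 and 3. Through the heat-shocked libraries alone *col9a1b* passed the RPKM filter, and through the unshocked ones alone *col27a1b* and *aspn*. Early crest regulators (5 higher and 2 lower of 18, or 27.8% and 11.1%) and *hox* genes and cofactors (2 and 2 of 18, or 11.1% each) had no member with the gap. Of all tested genes 1.56% were higher and 1.68% lower with the gap.

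Genes of dividing cells were mildly higher as a group. Of 49 tested cell cycle and replication genes, 31 (63.3%, beside 27.1% of all genes) were higher in both heat-shocked libraries and 0 lower. The median difference was 0.43 on the log2 scale, but none reached the gap, which 1.56% of all tested genes did as higher. The proliferation marker *mki67* was at 51.3 and 56.4 against 29.7 and 38.9, and *pcna*, the sliding clamp of replication, at 514 and 539 against 418 and 355. No member passed the test, and *mcm4* had the largest difference, 0.91 on the log2 scale. After rescaling 26 members were still higher without overlap and 0 lower. Of 26 chromatin regulators 13 (50%) were higher and 2 lower, with the DNA methyltransferase gene *dnmt3bb.2* at 9.86 and 14.1 against 5.24 and 6.12.

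Lists for protein production and breakdown differed in direction, and none of their genes reached the gap. Only 1.56% of all tested genes reached it as higher and 1.68% as lower. Of 76 tested cytosolic ribosomal protein genes, 32 (42.1%, beside 13.0% of all genes) were lower and 1 higher in both heat-shocked libraries, with a median of -0.48 on the log2 scale. This differed between the heat-shocked libraries: against the siblings the median was 0.02 for *hsp70I*:Gal4 and -0.62 for *UAS*:Edn1. Of 39 proteasome genes 24 (61.5%) were lower and 0 higher, with a median of -0.29. Against wild types the proteasome median was -0.41 for *hsp70I*:Gal4 and -0.46 for *UAS*:Edn1, but against the siblings only -0.09 and -0.08. Translation factors (25 higher and 4 lower of 67, or 37.3% and 5.97%) and splicing factors (15 and 7 of 55, or 27.3% and 12.7%) had no member with the gap. Over all tested genes 27.1% were higher and 13.0% lower, so the shares of splicing factors were near those of all genes. After rescaling the counts were 12 and 9 for translation factors and 8 and 10 for splicing factors. Nuclear genes of the respiratory chain had 4 higher and 5 lower of 76 (5.26% and 6.58%), and transcripts of the mitochondrial genome 1 and 0 of 13 (7.69% and 0%). In a separate list of 13 histone genes 8 were lower (61.5%) and 0 higher. Its 1 member with the gap, *h3f3b.1*, was at 76.7 and 75.6 against 294 and 158, a gap of 2.06. That gene was at 118 with NICD overexpression and at 41.7 in unshocked *edn1* mutants.

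Among 20 tested immediate early genes, which cells switch on within minutes of a stimulus, 10 (50%) were lower and 3 higher in both heat-shocked libraries. The list median on the log2 scale was -0.45 for *hsp70I*:Gal4 against wild types and against siblings. For *UAS*:Edn1 it was only -0.02 and -0.14. The gene *fosab* was at 3.12 and 3.23 against 11.2 and 6.43, and the nuclear receptor gene *nr4a1* at 10.5 and 10.1 against 1.62 and 6.51. These 2 were the members with the gap, in opposite directions, and that of *nr4a1* dropped to 1.35 after rescaling. Smaller lists held few genes with the gap. Over all tested genes 27.1% were higher and 13.0% lower without overlap, and 1.56% and 1.68% had the gap. For cholesterol synthesis the counts were 3 higher and 0 lower of 9, with *ebp* at 3.45 and 3.69 against 2.11 and 2.17. For glycolysis and hypoxia they were 6 and 3 of 22, with *gapdh* at 11.3 and 9.83 against 39 and 17. Oxidative stress and metals (1 and 5 of 15), temperature-responsive genes (1 and 1 of 6) and clock genes (2 and 1 of 14) had no member with the gap.

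**Figure D3:**
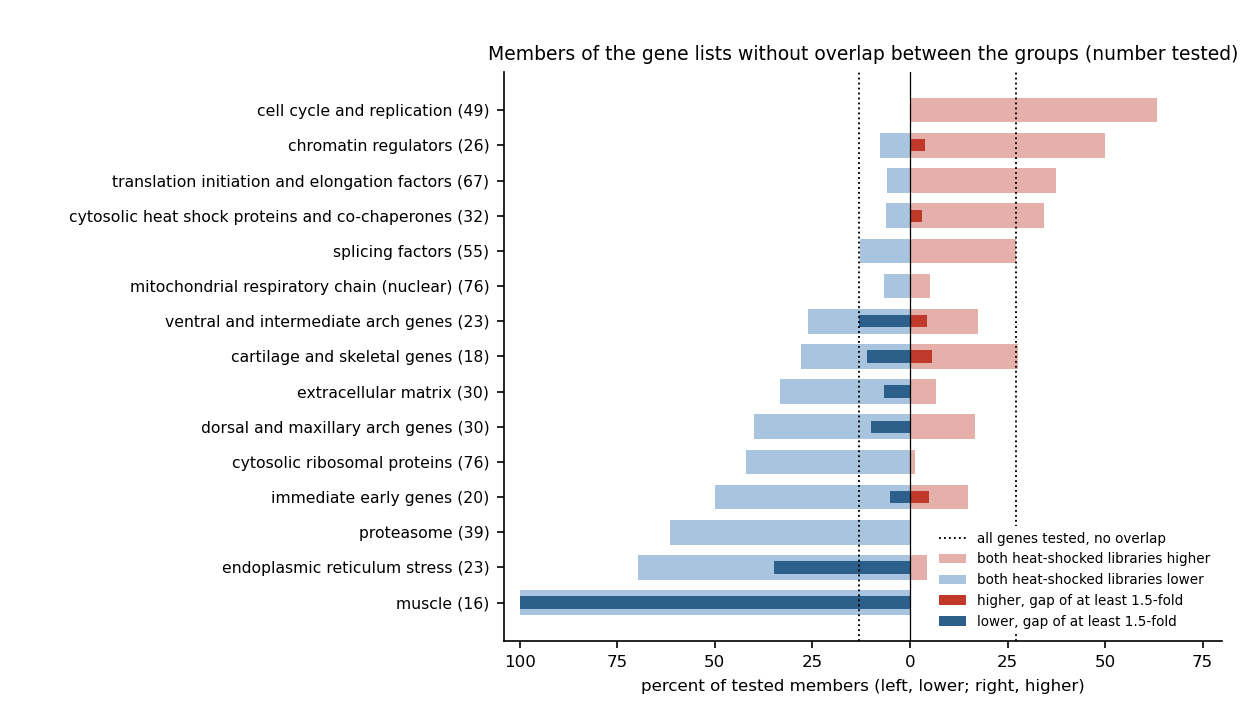
Bars give the percent of the tested members of each list (number in brackets) that were higher (right) or lower (left) in both heat-shocked control libraries. Pale bars count all members without overlap, dark bars those with a gap of at least 1.5-fold, and dotted lines mark the 27.1% and 13.0% of all tested genes. Of the bars drawn, the longest pale ones are 63.3% higher for cell cycle and replication and 100% lower for muscle.

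The 8 genes that fell all serve contracting muscle, and 7 of them are on the muscle list. They were the parvalbumins *pvalb1* and *pvalb2*, the fast myosin gene *myhz1.1*, the calcium pump *atp2a1*, the actins *acta1b* and *actc1b*, the troponin *tnni2a.4* and the creatine kinase *ckmb*. The calcium buffer *pvalb1* was at 1.3 and 0.964 in the heat-shocked libraries, 124 in wild types and 32.4 in siblings, and fell by 4.93 ± 0.50 (SE) on the log2 scale (limma adjusted p = 0.00913), and *actc1b* was at 7.5 and 3.71 against 155 and 49 (0.0307). Of 21 listed muscle genes 16 were tested, and all 16 (100%, beside 1.68% of all genes) were lower with the gap, whichever library was left out. Of the 16, 11 passed the RPKM filter through the unshocked libraries alone, which fixed part of that count, and 5 passed it in both groups. Of the 8 genes that fell by limma, all but *actc1b* passed the filter through the unshocked libraries alone. With no RPKM filter limma called 0 genes in either direction, and after rescaling it called none of the 8 genes. Near-identical actin and myosin genes may share reads.

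These genes are not arch crest genes, and they lead the list of lower genes by size. Summed RPKM of the 21 listed muscle genes was 45.6 and 26.4 in the heat-shocked libraries, 910 in wild types and 283 in siblings. It was 84.4 and 47.5 with NICD and Edn1 overexpression, and 174 to 604 in the other unshocked libraries of 36 hpf, so that the groups did not overlap. In wild types it was 17.2 at 20 hpf and 50.2 at 28 hpf, and it was 1308 and 898 in the *fli1a* and *sox10* single-positive cells. In such pooled cells, fewer cells of a type and less RNA per cell cannot be told apart. Without the listed muscle genes, 129 lower genes had the gap.

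Some markers of other cells also differed. Over all tested genes the gap was reached by 1.56% higher and 1.68% lower, and 27.1% were higher and 13.0% lower without overlap. Most marker lists had too few tested genes to be set beside these shares. Of 16 neuron genes 6 were tested, and 4 of these (66.7%) were higher with the gap and 0 lower. However, 3 of the 4 passed the RPKM filter through the heat-shocked libraries alone. The RNA-binding protein gene *elavl3* was at 8.41 and 8.66 against 2.19 and 3.1, and the neurogenic factor *neurod1* at 4.55 and 4.06 against 0.336 and 1.21. By contrast *elavl4* was at 3.01 and 0.516 against 0.0567 and 0.303 and *snap25a* at 3.41 and 0.302 against 0.149 and 0.194, so that their difference was mostly that of the *hsp70I*:Gal4 library, and both were below the gap after rescaling. Summed RPKM of the 16 neuron markers was 42.8 and 21.9 in the heat-shocked libraries and 9.73 and 16.3 in the unshocked ones, against 248 in *sox10* single-positive cells. The sum over 14 blood markers was 1481 in *hsp70I*:Gal4, 219 in *UAS*:Edn1, 136 in wild types and 335 in siblings, which overlapped, and *hbbe3* (139 and 14 against 9.08 and 8.94) and *tal1* were higher with the gap. Of 9 epidermis genes *cldnb* and *epcam* were higher and *krt91* lower with the gap, and the lens crystallin *crybb1* was at 3.72 and 4.59 against 2.09 and 0.603. Here *tal1*, *cldnb*, *epcam* and *crybb1* passed the RPKM filter through the heat-shocked libraries alone, and *krt91* through the unshocked ones alone. Macrophages and neutrophils (1 higher, 0 lower of 6), vasculature (0 and 1 of 3), ear (1 and 0 of 1), pigment cells (0 and 0 of 2), glia (2 and 0 of 2) and endoderm (1 and 0 of 2) had no gene with the gap, and no heart marker was tested. The part of these cells in the other differences was not tested.

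**Figure D4:**
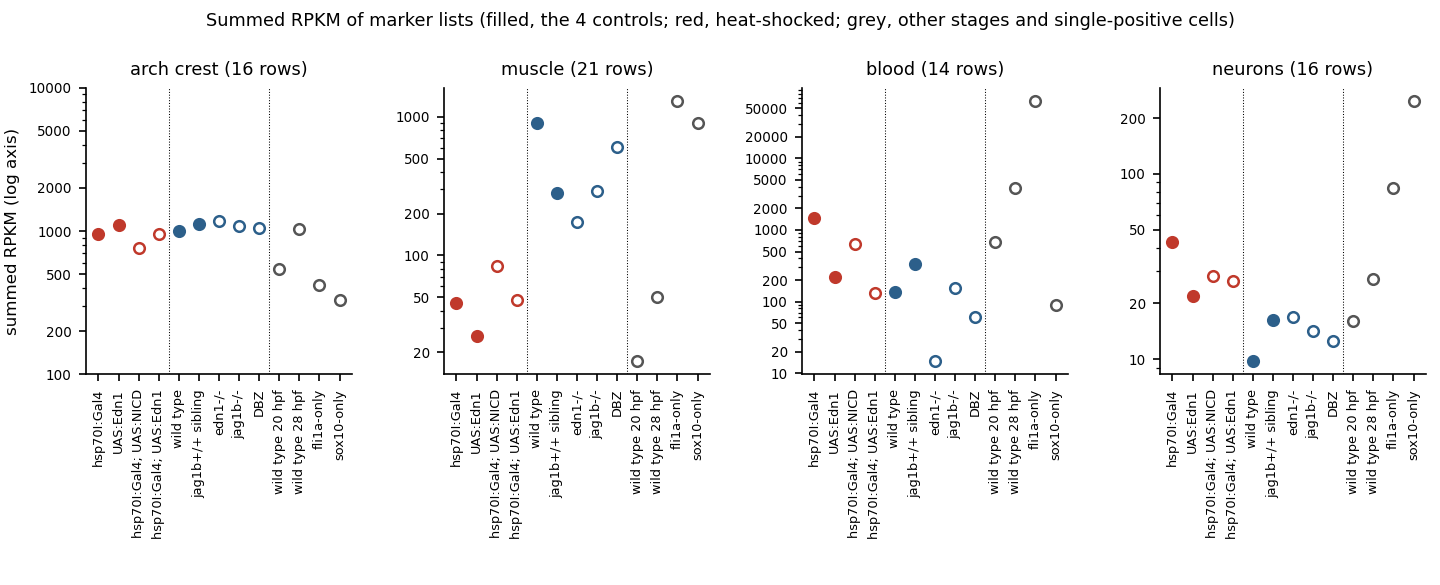
Summed RPKM (log axis) of 4 marker lists in all 13 libraries. The first 4 libraries in each panel are heat-shocked (red), the next 5 are unshocked at 36 hpf (blue), the last 4 are other stages and single-positive cells (grey), and filled circles are the 4 controls. Arch crest markers lie between 761 and 1175 in the 9 libraries of 36 hpf, and muscle markers between 26.4 and 84.4 in heat-shocked and between 174 and 910 in unshocked libraries.

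Other genes among the 15 higher ones with the largest gaps belonged to no list. The Notch target *her12* was at 4.82 and 4.27 against 0.473 and 0.665, with 35.8 under NICD. The ubiquitin ligase gene *lnx1* was at 4.2 and 2.6 against 0.24 and 0.499. Both groups were clear of each other for these genes, with gaps of 6.42 and 5.21. In wild types at 20 and 28 hpf *lnx1* was at 0.372 and 0.168, below its heat-shocked levels at 36 hpf, and *her12* at 69.3 and 14.6, above them. Among the unnamed genes, *si:ch211-92l17.1* was at 6.25 and 3.18 against 0.46 and 0.309 and *si:dkey-117j14.6* at 9.15 and 3.96 against 1.15 and 0.55. The gene *si:dkey-97i18.5* (11.1 and 0.396 against 0.0412 and 0.0402) and the synaptic gene *cplx2l* (3.05 and 0.386 against 0.00931 and 0.0364) were far higher in *hsp70I*:Gal4 than in the other 3 controls. Elsewhere *cplx2l* was at 1.87 with NICD, 1.6 with Edn1 overexpression and 3.54 in *sox10* single-positive cells, and *si:dkey-97i18.5* at 6.46 in wild types at 20 hpf. All genes named in this paragraph passed the RPKM filter through the heat-shocked libraries alone.

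To see whether the same genes separate heat-shocked from unshocked embryos in libraries that the count did not use, the 5 perturbed populations of 36 hpf were read in the same way. Both heat-shocked ones (NICD and Edn1 overexpression) were above all 3 unshocked ones (*edn1* mutants, *jag1b* mutants and DBZ) for 11.1% of tested genes and below them for 9.81%. Of the 2328 higher genes without overlap, 639 (27.4%) lay higher here too and 35 lay lower. Of the 1116 lower genes without overlap, 401 (35.9%) lay lower here too and 4 lay higher. Shares were larger among genes with the gap. Of the 134 higher genes, 101 (75.4%) lay higher here too and 0 lay lower. Of the 145 lower genes, 106 (73.1%) lay lower here too and 0 lay higher. Without the listed muscle genes the share was 91 of 129 (70.5%). Of the 134 and 145 genes, 73 and 86 passed the RPKM filter only through the controls in which they were high. The shares without these genes were not read. In the 5 perturbed libraries gain of a pathway goes with heat shock and loss with no heat shock, so that the 2 cannot be told apart. These libraries also share lines with the controls. Both overexpression libraries carry *hsp70I*:Gal4, that of Edn1 also carries *UAS*:Edn1, and the *jag1b* mutants are siblings of an unshocked control. Heat shock therefore cannot be told apart from shared lines and transgenes here either. With all 9 libraries in the limma fit, 62 genes were higher and 86 lower at an adjusted p under 0.05. Of these, 46 and 67 also had the gap in the controls. The 9 libraries include the 4 controls that define the gap, so part of this overlap is built in.

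The genes were also read in wild-type libraries of 20 and 28 hpf, neither of which is among the 4 controls. Of genes without overlap, the 1116 lower had a median change of 1.2-fold and the 2328 higher of 1.02-fold. Over all tested genes it was 1.07-fold. A rise of at least 1.5-fold was seen in 32.5% of these lower and 12.7% of these higher genes. The 145 lower genes with the gap had a median change of 1.92-fold from 20 to 28 hpf. Of them 64.1% rose by at least 1.5-fold, against 17.8% of all tested genes. Without the listed muscle genes the median was 1.89. Because 86 of the lower genes passed the RPKM filter through the unshocked libraries alone, the 59 that passed it in both groups were also read by themselves. Of these 61% rose and 0 fell by 1.5-fold, with a median of 1.83, beside 16.5% rising among all 7553 genes that passed in both groups. The 134 higher genes had a median change of 0.947-fold, with 22.4% rising and 22.4% falling by 1.5-fold, against 17.8% of all genes rising and 7.91% falling. The 61 higher genes that passed the filter in both groups had a median of 0.993, with 23% rising and 18% falling. Among all 7553 such genes 16.5% rose and 7.41% fell. Read the other way, genes with the gap were counted by their change in wild types. The 1535 genes with a rise of 1.5-fold from 20 to 28 hpf held 93 lower (6.06%) and 30 higher (1.95%) ones. The 681 genes with a fall held 2 lower (0.294%) and 30 higher (4.41%) ones. These counts include genes that passed the filter through 1 group alone. Among genes that passed in both groups, the 1243 with a rise held 36 lower and 14 higher genes, and the 560 with a fall held 0 and 11. The 177 genes with a rise of at least 5-fold had a median difference of -0.32 on the log2 scale between heat-shocked and unshocked controls, and it was between -0.32 and -0.25 in each of the 4 pairs of libraries. This median was not read without the genes that passed the filter through 1 group alone. Each of these stages is 1 library, and the part of developmental stage in the differences was not tested.

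**Figure D5:**
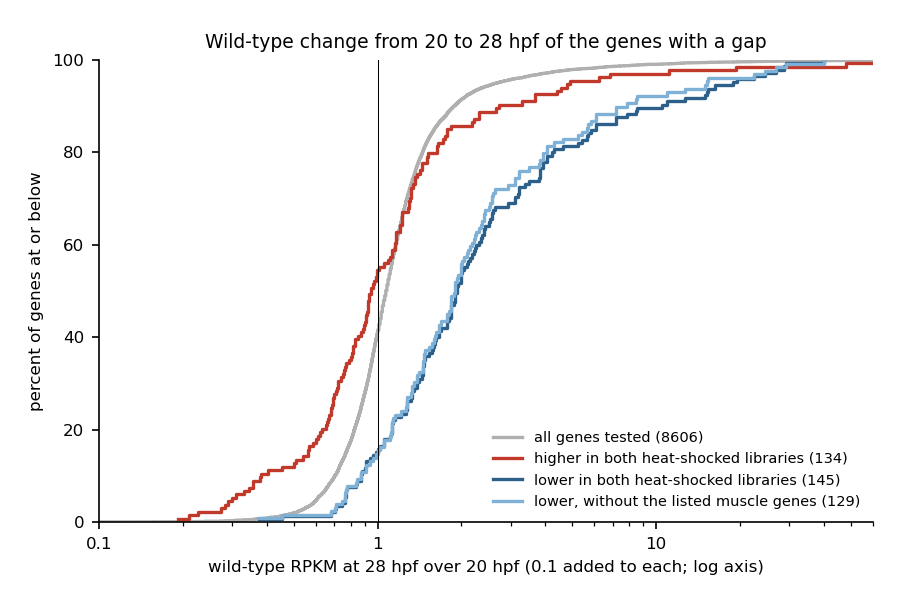
Cumulative percent of genes by their wild-type change from 20 to 28 hpf (log axis, 0.1 added to each RPKM). The curve of the 145 lower genes (dark blue) lies to the right of that of all 8606 tested genes (grey), with medians of 1.92 and 1.07, also without the listed muscle genes (light blue), and the curve of the 134 higher genes (red) has a median of 0.947.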

How the data were processed

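RNA of sorted *fli1a*:EGFP and *sox10*:DsRed double-positive cells was compared between 2 heat-shocked and 2 unshocked control libraries. The authors aligned trimmed reads with TopHat 2 to GRCz10, quantified the genes of Ensembl release 80 with the Partek E/M algorithm, and deposited RPKM values, which were used as deposited. Sequencing used 50 bp and 75 bp paired reads on different machines, and which library had which is not given in the sources used here. Relative depth and reads were recovered from the steps between low RPKM values (tolerance 0.06 of a read).

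The 2 libraries of a group were treated as replicates in limma 3.58.1 (R 4.3.3) on log2(RPKM + 1) with an intensity trend and Benjamini-Hochberg adjustment, over genes that reached an RPKM of 3 in any of the 4. P-values measure only the spread between these libraries. Other values came from Python 3.11.15 with numpy 2.4.6, pandas 2.3.3, scipy 1.17.1 and matplotlib 3.10.9.

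Named genes are the 15 with the largest gap in each direction (0.1 added to each RPKM), members of 24 gene lists and 13 marker lists with a gap of at least 1.5-fold, the transgene, allele and sort genes, the 6 most abundant heat shock genes, and others named as examples of a list or picked after their values were seen. The members and lists were chosen with earlier results of these data known. Alternatives were rescaling, other filters and pseudocounts, another gap, other limma settings and leaving out libraries. Promoter motifs were not analysed here, and 1 further gene list is not reported here.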

Additional observations from a re-analysis of the deposited data

How the results depend on the processing

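With each library divided by its median ratio, 1735 genes were lower without overlap in place of 1116, limma called 1 higher and 0 lower genes in place of 2 and 8, and 2 in place of 4 neuron genes had the gap. An RPKM minimum of 1 gave 1693 lower genes without overlap, 332 higher and 277 lower genes with the gap, and 4 higher genes by limma. A minimum of 5 gave 86 and a mean RPKM of 3 gave 89 higher genes with the gap, and the latter 5 lower genes by limma. A pseudocount of 1 gave 78 higher and 94 lower genes with the gap, and a gap of at least 2-fold was reached by 45 and 61. Limma called 0 genes in either direction with no filter, 3 lower genes without the intensity trend, and 62 higher and 86 lower genes over all 9 libraries of 36 hpf. The share of higher genes on the same side in the perturbed libraries was 83.6% without DBZ and 82.8% without *edn1* mutants. The causes were not tested.

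Leaving out 1 library at a time gave 2901 to 4262 higher and 1722 to 3165 lower genes without overlap, 253 to 890 higher and 256 to 849 lower genes with the gap, and 0 to 594 higher and 0 to 598 lower genes by limma. The counts without a test grow because fewer libraries must agree. The lists had 8 to 13 endoplasmic reticulum stress, 16 muscle and 4 to 5 neuron genes with the gap. List counts under rescaling and without a library, the count without muscle genes, and the stage changes of genes that passed the filter in both groups, were added after the data were seen. Of the named genes without overlap, 68 kept their side of 1.5-fold under rescaling, 6 (*cldnb*, *ebp*, *elavl4*, *hbbe3*, *nr4a1* and *snap25a*) did not, and none changed direction. No paired analysis was possible because replicate numbers only name the libraries. The number of libraries, 2 per group, limits the precision.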

Other observations

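Among the lower genes with a gap of 1.5-fold, further regulators of the developing face and skeleton appeared that no list held, and they were picked after their values were seen. The homeobox genes *shox* (4.24 and 3.77 in the heat-shocked against 12 and 14.7 in the unshocked libraries), *pitx1* (2.6 and 2.42 against 5.52 and 10.3) and *hmx4* (8.21 and 9.21 against 14.8 and 20.3) were among them, as were the zinc finger gene *osr1* (9.11 and 8.8 against 26.9 and 18.8) and *aldh1a2*, which makes retinoic acid (2.39 and 2.47 against 5.96 and 15.4). Each of these 5 genes was lower in both heat-shocked perturbed libraries than in the 3 unshocked ones, and each was below 0.5 RPKM in wild types at 20 hpf. Of them, *pitx1* and *aldh1a2* passed the RPKM filter through the unshocked libraries alone.

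Among the higher genes picked in the same way, several serve nucleotide synthesis and the nucleolus. The pyrimidine synthesis gene *cad* was at 33.9 and 46.6 against 12.7 and 15.7, the purine synthesis gene *ppat* at 17 and 19.9 against 10.7 in both unshocked libraries, and *ncl*, which encodes nucleolin, at 363 and 408 against 158 and 233. The telomerase gene *tert* was at 9.5 and 8.34 against 3.54 and 4.62. None of these genes was compared with others of its pathway.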
